A study of Mus musculus with 69 samples.

Results

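The collagen genes of cultured vascular smooth muscle cells (VSMC) and endothelial cells (EC) were analysed, defined as the protein-coding genes of the mouse genome whose symbol consists of Col, a number, the letter a and a number. By this rule 44 of the 56953 genes in the count tables were collagen genes, and 33 of them reached a mean of at least 3 FPM (fragment counts scaled to library size, the same scale as CPM) in WT VSMC, KO VSMC or EC. The other 11 genes (Col6a4, Col9a1, Col9a2, Col9a3, Col13a1, Col17a1, Col19a1, Col22a1, Col24a1, Col25a1 and Col26a1) stayed below that level in all 3 cell types and are given in counts only.

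The study examined how stressors that accompany obesity and diabetes act on the RNA of vascular wall cells and how far the EGF receptor of VSMC takes part. It comprised 69 poly(A) RNA-Seq libraries, of which 16 were WT VSMC, 15 were KO VSMC and 38 were EC, in 18 sets from 13 animals, and the sets are the replicates of each group. WT VSMC were primary cells from the aorta of male C57BL/6 mice, KO VSMC were the same cells from mice with a floxed Egfr gene and Cre under the SM22 promoter, and EC were primary cells from the heart with the genotype label WT, selected with beads as CD45-/CD31+ and grown on fibronectin. The age of the animals was not given in the sources used here. The methods describe the SM22 promoter as specific to VSMC. Whether other cells in a culture kept Egfr was not tested. Cells were passaged in medium with serum, kept without serum for 24 h, and then treated for 24 h, with BSA in every group including Control. HG + FFA stood for 20 mM glucose with 100 µM free fatty acids in the labels, where the methods name oleate and palmitate at 100 µM each. AII + NA stood for 30 nM angiotensin II with 300 nM of a catecholamine that the labels call epinephrine and the methods norepinephrine, and ALL joined both treatments. Sets 1 to 4 were WT VSMC, sets 5 to 8 KO VSMC and sets 9 to 18 EC, and the libraries of a set came from the same animal and passage. Not analysed here were ALL in KO set 5, Control in EC set 10 and AII + NA in EC set 15. Control thus had 4 WT VSMC, 4 KO VSMC and 9 EC libraries and ALL had 4, 3 and 10. A single animal gave EC sets 17 and 18, EC sets 9 and 10 share their animals with WT sets 1 and 2, and EC sets 15 and 16, although labelled WT, share theirs with KO sets 7 and 6. Their Egfr means of 9.40 and 2.65 FPM were the lowest of the EC sets, the others having 12.8 to 151 FPM, so counts of DEG in EC are also given without these sets. All VSMC libraries belonged to one labelled batch and all EC libraries to the other, so batch and cell type cannot be told apart.

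Collagens are proteins of the extracellular matrix in which 3 chains wind into a triple helix, and the type is set by the genes that supply the chains. Fibrillar collagens such as type I and type III form the tensile fibrils of the adventitia and media, type IV forms the sheet-like network of the basement membrane on which endothelium and smooth muscle cells rest, and type VI forms beaded filaments near the cell. Fibril-associated, multiplexin, short-chain and transmembrane collagens sit on the fibrils, in the basement membrane zone, in the subendothelial matrix or in the plasma membrane.

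Egfr, the targeted gene of the KO, had a mean of 249 to 433 FPM in the WT VSMC sets and of 0.949 to 1.80 FPM in KO sets 6 to 8, while KO set 5 had 36.3 FPM. Set 5 therefore stood apart from the other KO sets, and results on KO VSMC are given with and without it where it changes them. Total assigned counts lay between 17166133 and 43240489 per library. Of the defining smooth muscle genes, Acta2 was high in VSMC (601 to 1123 FPM in WT and 759 to 2376 FPM in KO sets). It was not confined to VSMC, with 168 to 3116 FPM in EC sets. The highest values of any set were 3116 and 2806 FPM in EC sets 11 and 13. Myh11 had 3.96 to 10.9 FPM in WT sets, 2.69 to 7.56 FPM in KO sets 6 to 8 and 237 FPM in KO set 5. Myocd had at most 1.11 FPM in any VSMC set. The summed level of 10 smooth muscle markers was 790 to 1327 FPM in WT sets and 229 to 3250 FPM in EC sets. In KO sets it was 886 to 3288 FPM, with set 5 the highest. Pecam1, which encodes the CD31 used for selection, reached 262 to 1603 FPM in 7 EC sets but 25.9, 41.4 and 17.9 FPM in sets 9, 11 and 13. Cdh5 had 8.80 to 897 FPM in EC and 0.0586 to 18.9 FPM in WT sets, while Cldn5 was at or near 0 in EC (0 to 0.645 FPM). The summed level of 12 endothelial markers was 390 to 6070 FPM in EC, 294 to 388 FPM in WT and 143 to 244 FPM in KO sets. Eng, which was not confined to EC, alone had 243 to 356 FPM in WT sets. The summed level of 10 fibroblast markers ranged over 2666 to 4409.8 FPM in WT sets, 429 to 2209 FPM in KO sets and 228 to 4810.1 FPM in EC sets. In such bulk samples fewer cells of a type and less RNA per cell cannot be told apart.

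Collagen RNA was abundant in all 3 cell types. The 44 genes together made up 2.11 ± 0.846 (SD, n = 16) percent of the scaled library size used for FPM in WT VSMC libraries. The value was 1.02 ± 0.661 (SD, n = 15) percent in KO VSMC and 1.75 ± 1.15 (SD, n = 38) percent in EC, and these libraries share sets. It differs from the percent of raw counts by the scaling factor of each library. The share spanned 1.08 to 3.96, 0.556 to 2.41 and 0.609 to 4.51 percent. The overlap of KO with WT VSMC came from KO set 5 alone, and without it the KO share was 0.705 ± 0.0988 (SD, n = 12) percent and spanned 0.556 to 0.848 percent, below every WT library. Col1a2, Col1a1 and Col3a1, the chains of the fibrillar types I and III, supplied 66.6 percent of the collagen FPM in WT VSMC and 57.5 percent in KO VSMC. In EC the first 4 genes were Col3a1, Col1a2, Col5a2 and Col1a1 with 61.6 percent, followed by Col4a1 with 8.73 percent.

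Levels between genes were compared per kilobase of transcript. In WT VSMC Col1a2 led with 1312 FPM per kb, ahead of Col1a1 with 670.2, Col3a1 with 555, Col6a1 with 215 and Col14a1 with 185 FPM per kb. KO VSMC had the same first 4 genes at 494, 319, 239 and 159 FPM per kb. In EC, Col3a1 with 571 and Col1a2 with 551 FPM per kb were followed by Col1a1 with 359, Col5a2 with 330.3 and Col4a1 with 230.5 FPM per kb. The ratio of Col1a1 to Col1a2 per kb was 0.398 to 0.650 in WT and 0.409 to 0.855 in KO VSMC libraries, below 1 in every one. For the other neighbours in these orders the ranges over sets overlapped, and their order was not tested.

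**Figure D1:**
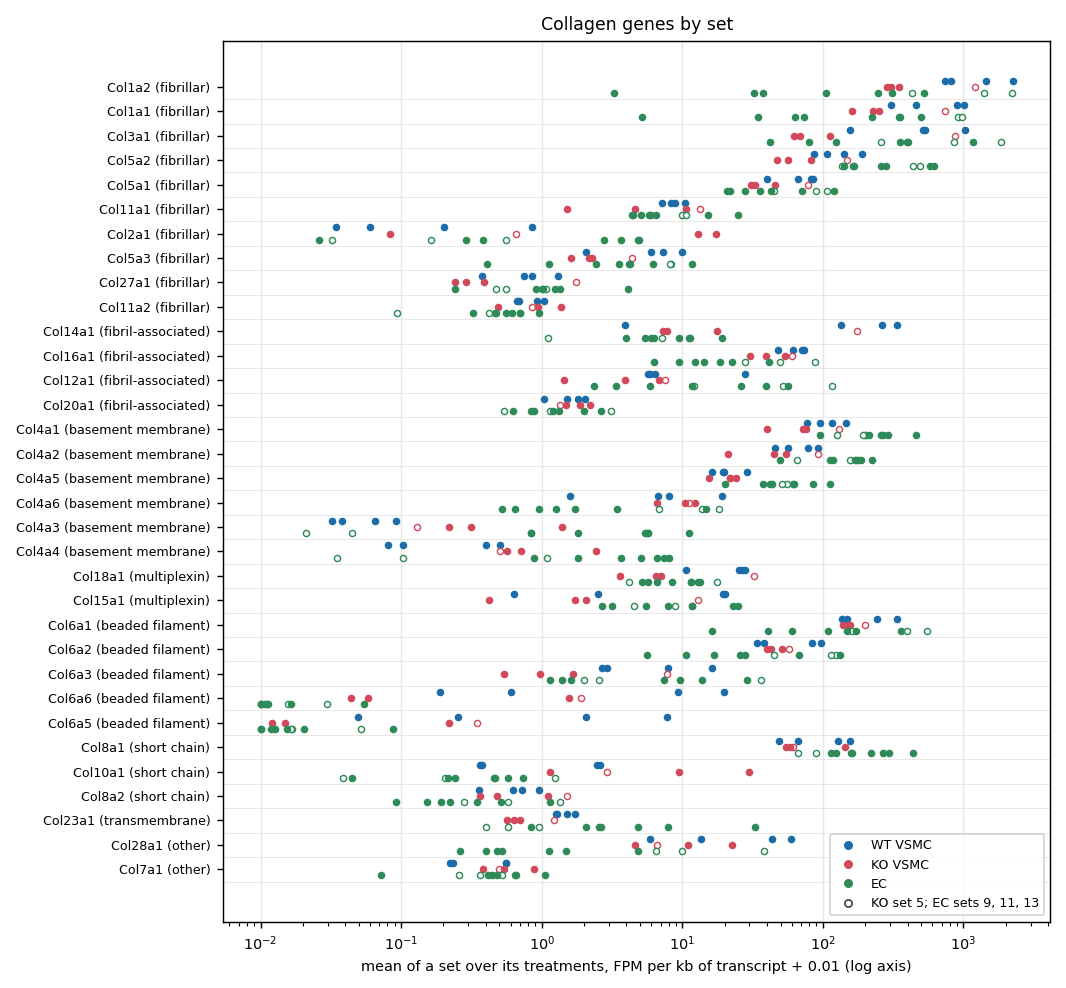
Mean FPM per kb of transcript of every set (log axis, a small constant added) for the 33 collagen genes, grouped by class. WT VSMC, KO VSMC and EC sets have different colours, and KO set 5 and EC sets 9, 11 and 13 are open symbols. Before division by transcript length, Col1a2 in EC spreads from 17.6 to 11922 FPM, while Col4a1 stays between 630.5 and 3026 FPM.

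Among the fibrillar collagens the type I chains differed strongly between sets of the same cell type. Col1a1 set means were 2729, 5373, 1799 and 5997 FPM in WT sets 1 to 4, and 4400.2, 1496, 1357 and 949 FPM in KO sets 5 to 8. Among EC sets Col1a1 had its lowest mean in set 14 (30.6 FPM), a median of 1704 and its highest in set 13 (5762 FPM). The EC sets thus covered a far wider range than the VSMC sets, and KO set 5 lay inside the WT range while the other KO sets lay below it. Col1a2 had 4367, 7747, 3987 and 12013 FPM in WT sets and 6488, 1644, 1538 and 1871 FPM in KO sets, and ran from 17.6 to 11922 FPM in EC. Col3a1, the chain of the type III homotrimer, had 2949, 2868, 873 and 5669 FPM in WT sets, 4839, 379.7, 346 and 624 FPM in KO sets and 234 to 10332 FPM in EC. EC set 14 was low in both type I chains but had 1951 FPM of Col3a1, so that the types were not parallel in that set.

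Type V and type XI chains co-assemble with the major fibrils and limit their diameter. Col5a1 ranged over 338 to 713 FPM in WT, 262 to 665 in KO and 175 to 1011 FPM in EC sets, a narrower span from lowest to highest than that of Col1a1 in each cell type. Col5a2 had 989 ± 345 (SD, n = 4) FPM in WT sets and 2472 ± 1414 (SD, n = 10) FPM in EC sets. Col11a1, which is best known from cartilage, was present in all cells with 55.5 to 80.3, 11.6 to 103 and 33.7 to 193 FPM. Col2a1, the cartilage fibrillar chain, was near 0 in most sets but reached 67.9 and 90.9 FPM in KO sets 6 and 7 against 0.384 FPM in KO set 8. Col11a2 ranged over 4.15 to 6.57 FPM in WT sets and Col27a1, a short fibrillar collagen, over 2.77 to 9.90 FPM.

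Among the basement membrane chains Col4a1, Col4a2 and Col4a5 were steadier between sets than Col4a3, Col4a4 and Col4a6 in WT VSMC and EC. Col4a1 had 769, 971, 509.8 and 634 FPM in WT sets, 863, 475, 505 and 264 FPM in KO sets and 630.5 to 3026 FPM in EC. Col4a2 ranged over 307 to 622, 143 to 618 and 335 to 1514 FPM. Col4a5 had 107 to 189 FPM in WT and 131 to 742 FPM in EC sets, and its partner Col4a6 varied more, from 3.39 to 121 FPM in EC. Col4a3 and Col4a4, which join Col4a5 in the network of specialised basement membranes such as that of the glomerulus, were low in WT VSMC (0.189 to 0.697 and 0.728 to 5.12 FPM). In EC Col4a3 was at 0.0939 and 0.30 FPM in sets 11 and 13, both of low Pecam1. The other sets, among them set 9, also of low Pecam1, had 7.11 to 95.5 FPM.

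The genes of these partner chains lie side by side in the genome (GRCm39). The canonical transcripts of Col4a1 (chr8:11248423-11362826) and Col4a2 (chr8:11362509-11499287) run in opposite directions and overlap by 318 bases at their starts. Those of Col4a4 (chr1:82426144-82564800) and Col4a3 (chr1:82564697-82699780) overlap by 104 bases, while 1281 bases separate Col4a6 and Col4a5 on chromosome X. Reads in such overlaps cannot be assigned to a strand with certainty here, as the strand setting of the counting is not given in the sources used here. The ratio of Col4a1 to Col4a2 was 1.60 ± 0.259 (SD, n = 69) over all libraries and ranged over 1.04 to 2.16, the narrowest range relative to its lowest value among the 6 pairs of chains that could be formed in every library. The ratio of Col6a1 to Col6a2 ranged over 1.66 to 4.22, and that of Col1a1 to Col1a2, which assemble as 2 chains to 1, over 0.424 to 2.13. The ratio of Col5a1 to Col5a2 was 0.619 ± 0.218 (SD, n = 16) in WT VSMC and 0.210 ± 0.0841 (SD, n = 38) in EC libraries. The ratio of Col6a3 to Col6a1 spread furthest, over 0.00365 to 0.412. These ratios compare FPM of whole genes and were not tested.

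Of the filament-forming type VI genes, Col6a1 had 558, 1002, 604 and 1369.7 FPM in WT sets, 813, 571, 627 and 644 FPM in KO sets and 66.7 to 2262 FPM in EC. Col6a2 ran from 202 to 576, 239.7 to 342 and 33.3 to 794 FPM. Col6a3, the longest chain of the classical heterotrimer, had 26.5, 71.9, 24.2 and 149 FPM in WT sets and 71.0, 15.2, 4.81 and 8.75 FPM in KO sets. Col6a5 and Col6a6, later members of the family that resemble Col6a3, were set-specific in WT VSMC. Col6a6 had 5.49, 85.7, 1.66 and 183 FPM in WT sets 1 to 4 and Col6a5 2.27, 19.1, 0.365 and 72.8 FPM, and both were high in sets 2 and 4. In EC sets Col6a6 was at most 0.409 FPM and Col6a5 at most 0.728 FPM.

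The remaining classes held some of the largest contrasts between sets. Col14a1, a fibril-associated collagen of the adventitia, had 1700.0, 868, 25.3 and 2176 FPM in WT sets, 1127, 113, 46.7 and 49.9 FPM in KO sets and 7.14 to 123 FPM in EC. WT set 3 was thus below every KO set and KO set 5 inside the range of the other WT sets. Col12a1, which bridges fibrils under tension, had 329.8, 69.2, 76 and 67.7 FPM in WT sets, with set 1 far above the others, and 27.6 to 1366 FPM in EC. Col16a1 was steady in VSMC (270.3 to 418 FPM in WT and 173 to 343 FPM in KO sets). Col15a1, a multiplexin that links basement membrane to fibrils, had 14.5, 116, 3.58 and 112 FPM in WT sets, and Col18a1, the precursor of endostatin, 148, 156, 59.5 and 142 FPM. Col8a1, a short-chain collagen of the subendothelial matrix, had 510.4 ± 257 (SD, n = 4) FPM in WT, 406 ± 218 (SD, n = 4) FPM in KO and 992 ± 585 (SD, n = 10) FPM in EC sets, whereas its partner Col8a2 had 2.87 ± 1.08 (SD, n = 4) FPM in WT sets. The transmembrane Col23a1 had 7.28 to 9.98 FPM in WT, 3.25 to 7.07 FPM in KO and 2.28 to 191 FPM in EC sets. Col28a1, a collagen with von Willebrand factor domains, ranged over 28.9 to 292 FPM in WT sets and Col20a1 over 4.60 to 9.07 FPM in WT sets. Col10a1, known from hypertrophic cartilage, ranged over 3.56 to 94.2 FPM in KO sets. Col7a1, the anchoring-fibril collagen, had a mean of 3.54 FPM in WT VSMC, 5.30 FPM in KO VSMC and 4.48 FPM in EC libraries. Exons of Col10a1, Col18a1, Col1a2 and Col4a3 overlap those of other annotated genes over 20.8, 12.7, 10.3 and 10.1 percent of their length, where the counts are uncertain.

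The effect of the stressors was tested within each cell type with the set as a block. A gene was called a DEG (differentially expressed gene) where edgeR's quasi-likelihood test and DESeq2 both gave an FDR (Benjamini-Hochberg) under 0.05, the |log2FC| was at least 0.64 and the mean reached 3 FPM in one of the groups compared. The log2FC, SE and FDR printed are those of edgeR.

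ALL stressors lowered 8 collagen genes in WT VSMC and raised 1. Of the 37 collagen genes tested 9 were DEG, against 2.15 percent of all genes tested, and 8 were lower, against 0.941 percent of all genes. By the edgeR FDR alone 13 collagen genes passed, 11 lower and 2 higher, against 7.45 percent of all genes. The median log2FC of the 37 genes was −0.19, and that of all genes tested −0.01. Col5a3, the least abundant type V chain, fell most, by a factor of 2.78, and Col12a1 rose 1.82-fold.

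Col5a3 (chr9:20681337-20726418) had 55.4, 80.4, 19.2 and 75.9 FPM in Control of WT sets 1 to 4 and 23.0, 27.9, 8.00 and 21.3 FPM under ALL. It was lower in every set, and only the Control of set 3 lay within the range of the ALL libraries (log2FC −1.48 ± 0.16 (SE), FDR 9.20e-05). Col15a1 (chr4:47207582-47313179) had 20.4, 164, 3.73 and 179.5 FPM in Control and 9.10, 57.5, 3.09 and 59.1 FPM under ALL. Sets 2 and 4 were high and sets 1 and 3 low in both conditions, and each set was lower under ALL (log2FC −1.26 ± 0.20 (SE), FDR 0.00170). Col23a1 (chr11:51180566-51474745) had 9.17, 13, 9.07 and 13.3 FPM in Control and 5.75, 5.99, 5.05 and 7.19 FPM under ALL. Here the groups did not overlap (log2FC −0.88 ± 0.12 (SE), FDR 0.000793).

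Col6a3 (chr1:90693645-90771780) had 36.8, 81.6, 31.4 and 243 FPM in Control and 21.5, 37.9, 17.8 and 74.8 FPM under ALL. All 4 sets were lower, set 4 by the most (log2FC −1.11 ± 0.21 (SE), FDR 0.00531). Col3a1 (chr1:45350698-45395840) had 3637, 3269, 969 and 8236 FPM in Control and 2463, 2037, 747 and 3833 FPM under ALL, with every set lower and the groups overlapping (log2FC −0.68 ± 0.15 (SE), FDR 0.00988). The other type VI DEG was Col6a6 (chr9:105564724-105705561), with 6.66, 96.0, 1.81 and 265 FPM in Control and 4.97, 51.4, 1.09 and 121 FPM under ALL. Its level differed between sets far more than between treatments, and it was lower in 4 of 4 sets (log2FC −0.85 ± 0.17 (SE), FDR 0.00666).

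Lower levels were also found for Col27a1 (chr4:63132241-63253228), which had 8.04, 10.6, 3.51 and 8.02 FPM in Control and 5.46, 6.42, 2.18 and 3.88 FPM under ALL (log2FC −0.75 ± 0.15 (SE), FDR 0.00733). Col8a2 (chr4:126180559-126208123) had 5.87, 3.09, 2.00 and 3.98 FPM in Control and 2.76, 1.28, 1.35 and 2.62 FPM under ALL (log2FC −0.87 ± 0.20 (SE), FDR 0.0136). Both genes were lower in all 4 sets and were among the least abundant of the collagen genes reported. Col12a1 (chr9:79506268-79626135) moved the other way, with 270.2, 50.4, 45.2 and 49.3 FPM in Control and 399, 81.2, 102 and 101 FPM under ALL (log2FC 0.86 ± 0.17 (SE), FDR 0.00616). Set 1 was the highest in both conditions, and in sets 2 to 4 every ALL library lay above every Control library.

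The type I chains, which carry most of the collagen RNA, did not pass the test in WT VSMC under ALL. Col1a1 had 3014, 5461, 1784 and 7362 FPM in Control and 3143, 4722, 1877 and 5099.8 FPM under ALL, a log2FC of −0.14 with a 95% interval of −0.40 to 0.11. For Col1a2 the log2FC was −0.18 with an interval of −0.38 to 0.02. Among the basement membrane chains 0 of 6 were DEG by both tools, with log2FC of −0.01 for Col4a1 and −0.02 for Col4a2. Another 4 genes passed the edgeR FDR but not the |log2FC| limit, Col20a1 (−0.58), Col6a1 (−0.52), Col6a2 (−0.55) and Col8a1 (0.50). Because Col8a2 was lower and Col8a1 had a positive log2FC, the ratio of Col8a1 to Col8a2 was 113, 90.8, 324 and 46.9 in Control and 229, 321, 679.8 and 139 under ALL in sets 1 to 4, higher under ALL in each set. Without WT set 4 the number of collagen DEG under ALL was 4 (Col5a3, Col15a1, Col23a1 and Col12a1) in place of 9, against 1.55 percent of all genes. Of 9 fibroblast markers tested Pi16 was the DEG under ALL (log2FC −0.85 ± 0.11), and the summed level of the 10 markers was 2904 to 5095 FPM in Control and 2209.9 to 4673 FPM under ALL. Of 10 smooth muscle markers Tagln (log2FC 0.95 ± 0.26) and Mylk (1.11 ± 0.18), both of the contractile apparatus, were higher, and the sum of the 10 was 395 to 1227 FPM in Control and 1138 to 1606 FPM under ALL. Of 12 endothelial markers Cdh5 was lower (−1.17 ± 0.25) and Flt1 higher (0.82 ± 0.18), with sums of 247 to 383 and 319 to 419.5 FPM. Of 6 pericyte markers Kcnj8 was lower (−1.44 ± 0.29), with sums of 680.4 to 890.2 and 746 to 935 FPM. Cdh5 and Kcnj8 had set means of 0.0586 to 18.9 and 0.0483 to 10.6 FPM. The part of these cells and of the smooth muscle state in the collagen changes was not tested.

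**Figure D2:**
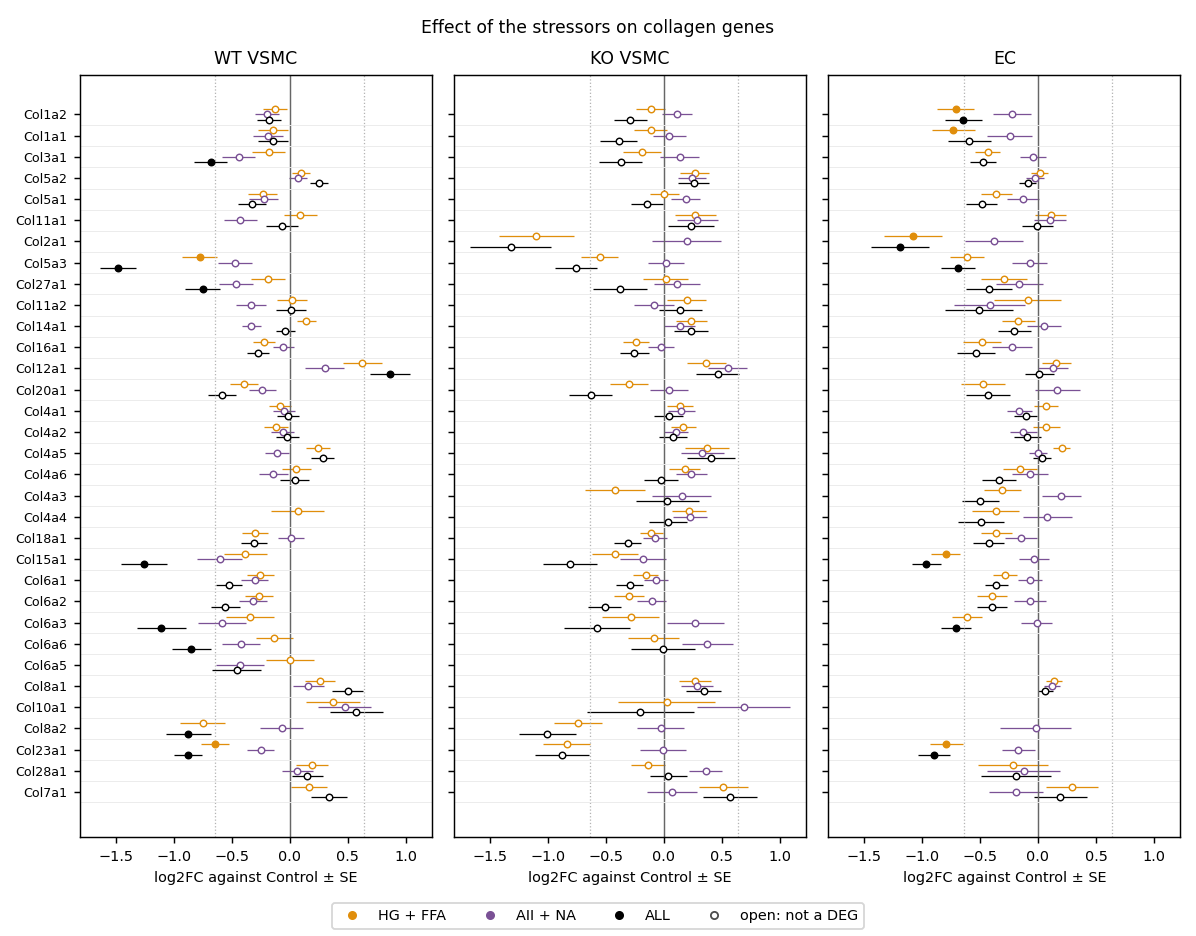
log2FC against Control with its SE for the 3 stressor conditions in each cell type, for the collagen genes with at least 3 FPM in one of the groups compared, filled where the gene was a DEG. In WT VSMC under ALL, Col5a3 lies at −1.48 and Col12a1 at 0.86, and in KO VSMC no symbol is filled.

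HG + FFA alone lowered 2 collagen genes in WT VSMC, Col23a1 and Col5a3, of 37 tested and against 0.284 percent of all genes. Col5a3 had 28.5, 66.7, 8.22 and 43.3 FPM in sets 1 to 4 under HG + FFA (log2FC −0.78 ± 0.15 (SE), FDR 0.0286), and Col23a1 had 6.86, 7.77, 5.21 and 8.63 FPM (log2FC −0.64 ± 0.12 (SE), FDR 0.0227). Both were below the Control of the same set in each of the 4 sets. Neither gene was a DEG when set 1, 3 or 4 was left out, which gave 0 collagen DEG. Without set 2 Col5a3 remained a DEG and Col23a1 did not. Col23a1, whose log2FC lay at the limit, was also lost without the count filter. Over 10 alternatives the call was kept in 4 for Col23a1 and in 6 for Col5a3. At an unadjusted p under 0.05, 9 collagen genes were lower and 2 higher under HG + FFA, where 11.2 percent of all genes passed.

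AII + NA alone gave 0 collagen DEG in WT VSMC, by edgeR with DESeq2 and also by either tool alone, where 0.0414 percent of all genes were DEG. At an unadjusted p under 0.05, 11 of the 37 genes were lower and 0 higher, and 9.42 percent of all genes passed that limit. The median log2FC was −0.19 against −0.01 for all genes. The smallest FDR was that of Col14a1 with 0.167 at a log2FC of −0.33. For Col5a3 the log2FC was −0.47, for Col15a1 −0.60 and for Col3a1 −0.44, and the AII + NA values of Col5a3 were 40.8, 69.3, 15.2 and 40.9 FPM, between those of Control and ALL in each set. The 3 stressor conditions share the same Control libraries, so their values are set side by side only.

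The direct comparison of ALL with HG + FFA in WT VSMC gave 0 collagen DEG, where 0.0296 percent of all genes were DEG, while DESeq2 alone called 2, against 0.385 percent of all genes, and 10 genes were lower at an unadjusted p under 0.05, a limit that 10.8 percent of all genes passed. Col5a3 had a log2FC of −0.70 ± 0.16 (SE) with an FDR of 0.0989 in this comparison, and Col15a1 of −0.87 ± 0.20 with an FDR of 0.108. Without WT set 1 edgeR with DESeq2 called 1 gene, against 0.0592 percent of all genes. A departure of ALL from the sum of both single log2 effects was found for 0 collagen genes and for 0 percent of all genes, also by either tool alone, and at an unadjusted p under 0.05 for 0 collagen genes and 1.72 percent of all genes. For Col5a3 the departure was −0.23 (95% interval −0.65 to 0.19), and for Col12a1 −0.06 (−0.53 to 0.41).

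In KO VSMC no collagen gene was a DEG under any of the stressors. HG + FFA gave 0 of 37 genes, against 0.291 percent of all genes, where DESeq2 alone called 1 (0.507 percent of all genes) and 10 genes had an unadjusted p under 0.05 (7 lower, 3 higher), as did 12.4 percent of all genes. ALL gave 0 of 37, against 0.314 percent of all genes, with n = 3 under ALL. There DESeq2 alone called 4 (0.747 percent of all genes) and 13 genes had an unadjusted p under 0.05 (10 lower, 3 higher), as did 10.5 percent of all genes. AII + NA gave 0 of 37, where 0 percent of all genes were DEG, DESeq2 alone called 0 and 2 genes were higher at an unadjusted p under 0.05, which 9.76 percent of all genes passed. The median log2FC under ALL was −0.20, close to the −0.19 of WT VSMC.

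The genes that were DEG in WT VSMC had the following values in KO VSMC under ALL. Col5a3 had 14.7, 17.3 and 12.6 FPM in Control of KO sets 6 to 8 and 13.5, 8.34 and 5.39 FPM under ALL (log2FC −0.76 ± 0.18 (SE), FDR 0.0987). Col15a1 had 13.9, 3.22 and 12.3 FPM in Control and 10.5, 1.26 and 6.29 FPM under ALL (log2FC −0.81 ± 0.23 (SE), FDR 0.196). Col23a1 had 4.40, 3.86 and 5.83 FPM in Control and 3.24, 1.85 and 2.55 FPM under ALL (log2FC −0.88 ± 0.23 (SE), FDR 0.139). All 3 were below Control in 3 of 3 sets, as was Col8a2 (log2FC −1.0, FDR 0.112). The log2FC was −0.57 for Col6a3, −0.37 for Col3a1, −0.38 for Col27a1, 0.46 for Col12a1 and −0.01 for Col6a6, all with an FDR above 0.05. Under HG + FFA Col23a1 had a log2FC of −0.84 (FDR 0.102) with all KO sets and of −0.95 (FDR 0.0325, a DEG) without KO set 5, where 1.97 percent of all genes were DEG. Col5a3 had −0.55 under HG + FFA (FDR 0.199).

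**Figure D3:**
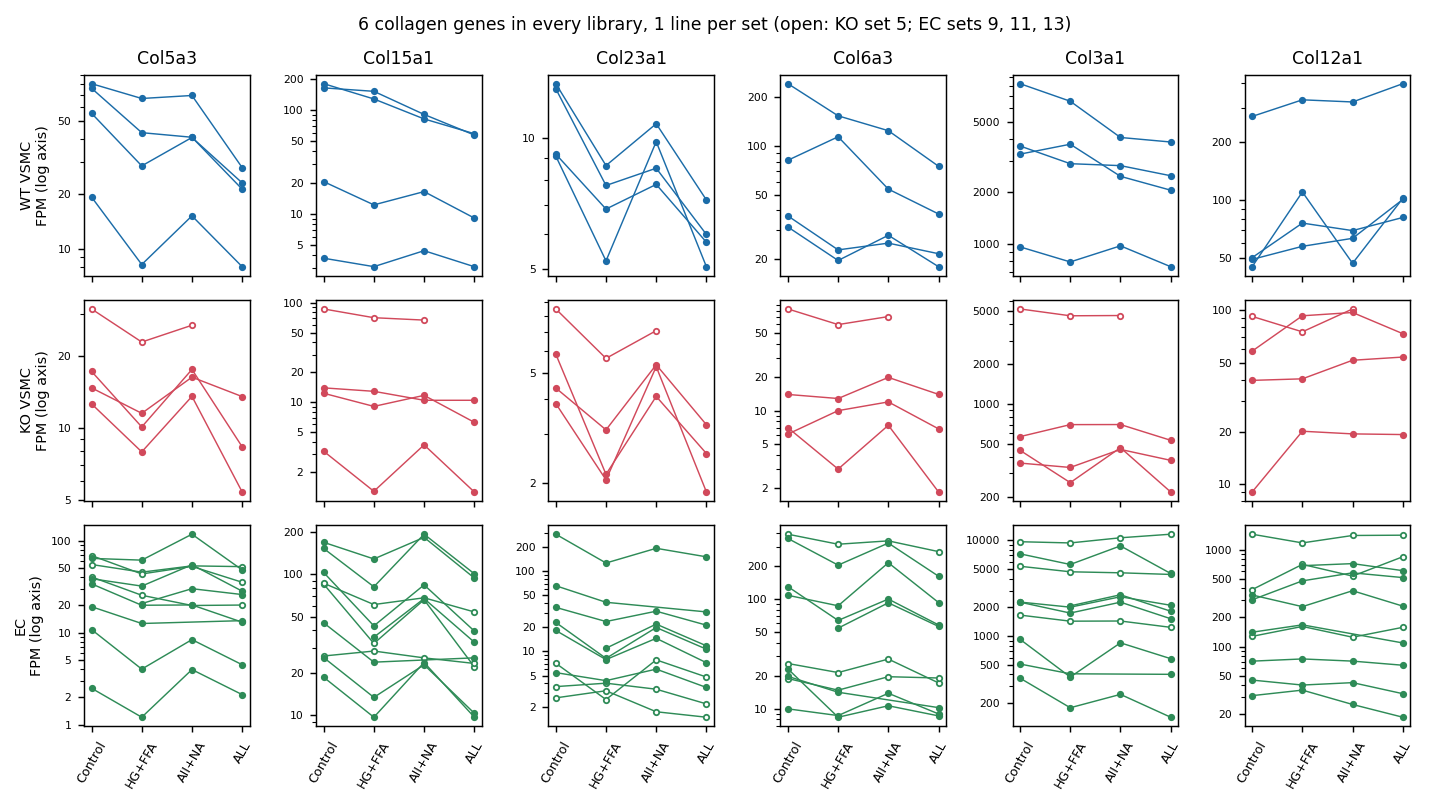
FPM (log axis) of Col5a3, Col15a1, Col23a1, Col6a3, Col3a1 and Col12a1 in every library by treatment, with a line for each set, and KO set 5 and EC sets 9, 11 and 13 as open symbols. In WT VSMC each line of Col5a3 ends lower under ALL than under Control, while each line of Col12a1 ends higher.

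The difference between the genotypes was tested directly. The effect of ALL differed between WT and KO VSMC for 0 of 37 collagen genes, against 0.0109 percent of all genes, and DESeq2 alone called 0 and 2 genes had an unadjusted p under 0.05, both lower in WT, as did 7.42 percent of all genes. For Col5a3 the log2FC of WT minus that of KO VSMC was −0.72 (95% interval −1.21 to −0.23, FDR 0.469). The difference was −0.44 for Col15a1 (−1.09 to 0.20), −0.00 for Col23a1 (−0.59 to 0.59), −0.31 for Col3a1 (−0.80 to 0.18) and 0.41 for Col12a1 (−0.13 to 0.94). A call in WT VSMC and none in KO VSMC is therefore not shown to be a difference between genotypes for these genes. For HG + FFA 0 collagen genes and 0 percent of all genes differed, with 0 by DESeq2 alone and 0 at an unadjusted p under 0.05, which 3.08 percent of all genes passed. For AII + NA 0 collagen genes and 0 percent of all genes differed, with 0 by DESeq2 alone, while 8 collagen genes were lower in WT at an unadjusted p under 0.05, which 11.9 percent of all genes passed. The log2FC under AII + NA was lower in WT than in KO VSMC for 34 of 37 genes. The median was −0.24, where that of all genes was −0.006, and the smallest FDR among the 37 was 0.395. These genes were measured in the same sets, so they do not count as separate observations. Without KO set 5 the counts of collagen DEG were also 0. The share of all genes in that fit is not given here, so these counts only show that the calls did not move.

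In EC, HG + FFA lowered 5 collagen genes and ALL lowered 6, and none was raised. Of 35 genes tested under HG + FFA, 5 were DEG, against 0.659 percent of all genes and 0.402 percent of all genes for lower DEG, and 9 passed the edgeR FDR alone, against 3.53 percent. Under ALL, 6 of 35 were DEG, against 0.641 percent of all genes and 0.420 percent for lower DEG, and 10 passed the edgeR FDR alone, against 3.18 percent. The median log2FC was −0.36 under HG + FFA, where that of all genes was −0.00, and −0.43 under ALL, where it was −0.01. The smallest FDR in both comparisons were those of Col15a1 and Col23a1, the largest |log2FC| among the DEG was that of Col2a1, and both type I chains were among the lower genes.

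Col15a1 in EC had in Control a lowest value of 18.6, a median of 85.2 and a highest value of 168 FPM over 9 sets, under HG + FFA a lowest value of 9.72, a median of 34.1 and a highest value of 128 FPM over 10 sets, and under ALL a lowest value of 9.73, a median of 29.3 and a highest value of 101 FPM. It was lower than the Control of the same set in 8 of 9 sets under HG + FFA (log2FC −0.79 ± 0.13 (SE), FDR 0.000163) and in 9 of 9 under ALL (log2FC −0.96 ± 0.13 (SE), FDR 7.99e-06). The groups overlapped widely, and the lower level showed within the sets.

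Col23a1 in EC had in Control a lowest value of 2.63, a median of 18.3 and a highest value of 291 FPM, under HG + FFA a lowest value of 2.51, a median of 8.06 and a highest value of 127 FPM and under ALL a lowest value of 1.51, a median of 8.96 and a highest value of 152 FPM. Set 18 was the highest in each condition. Col23a1 was lower in 7 of 9 sets under HG + FFA (log2FC −0.79 ± 0.14 (SE), FDR 0.000684) and in 9 of 9 under ALL (log2FC −0.89 ± 0.14 (SE), FDR 0.000120).

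The type I chains followed. Col1a2 (chr6:4504814-4541555) had in Control a lowest value of 24.6, a median of 1561 and a highest value of 11583 FPM and under HG + FFA a lowest value of 10.8, a median of 1297 and a highest value of 11950.4 FPM, lower in 8 of 9 sets (log2FC −0.71 ± 0.16 (SE), FDR 0.00794). Under ALL it was also a DEG (log2FC −0.64 ± 0.16 (SE), FDR 0.0186), lower in 8 of 9 sets. Col1a1 (chr11:94827050-94843868) had in Control a lowest value of 52.3, a median of 1853 and a highest value of 7848 FPM and under HG + FFA a lowest value of 11.5, a median of 1504 and a highest value of 5179 FPM, lower in 7 of 9 sets (log2FC −0.73 ± 0.19 (SE), FDR 0.02). Under ALL Col1a1 had a log2FC of −0.59 with an FDR of 0.0724 and was not a DEG. Set 11, one of the sets of low Pecam1, had more Col1a2 under ALL (13169 FPM) than in Control (11583 FPM).

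Col2a1 (chr15:97873483-97902689) was a DEG in EC under both treatments (log2FC −1.08 under HG + FFA, FDR 0.00938, and −1.19 under ALL, FDR 0.00518). It was lower in 6 of 9 sets only and was listed at 0 in the Control of sets 11 and 16, so that the fold rests on the sets that express it, from 43.4 to 15 FPM in set 12 and from 40.4 to 14 FPM in set 14. Under ALL Col6a3 (log2FC −0.71 ± 0.13 (SE), FDR 0.00105) and Col5a3 (log2FC −0.69 ± 0.14 (SE), FDR 0.00459) were DEG as well, lower in 8 of 9 and 9 of 9 sets. Under HG + FFA they had log2FC of −0.61 and −0.61, with FDR of 0.00418 and 0.0106. Col3a1 was at −0.43 under HG + FFA and −0.48 under ALL (FDR 0.0187 and 0.0105), under the |log2FC| limit in both. Col12a1, higher in WT VSMC, had 0.01 in EC under ALL (95% interval −0.24 to 0.26, FDR 0.978), Col27a1 −0.42 (FDR 0.288) and Col8a2, which stayed under 3 FPM in these groups, −1.12 (FDR 0.0381). Col6a6 was not tested in EC, where its counts were too low.

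AII + NA gave 0 collagen DEG in EC, where 0 percent of all genes were DEG, with 0 by DESeq2 alone and 0 at an unadjusted p under 0.05, which 6.67 percent of all genes passed. The log2FC under AII + NA was −0.03 for Col15a1 and −0.22 for Col1a2, with 95% intervals of −0.28 to 0.22 and −0.55 to 0.10. When EC sets 9, 11 and 13 were left out, 7 collagen genes were DEG under HG + FFA, against 0.721 percent of all genes, and 8 under ALL, against 0.670 percent, and Col1a2 had a log2FC of −0.92 under HG + FFA. Without EC sets 15 and 16, from the donors of KO VSMC, 7 were DEG under HG + FFA, against 0.508 percent of all genes, and 6 under ALL, against 0.565 percent, including the 5 and 6 genes called with all sets. When the animal in place of the set was the block, which joins sets 17 and 18, 1 gene remained in each comparison, Col15a1, where 0.292 percent of all genes were DEG under HG + FFA and 0.257 percent under ALL. Markers of other cell types moved as well. Of 10 fibroblast markers tested Pi16 (log2FC −1.03 ± 0.29) and Mfap5 (−0.68 ± 0.19) were lower DEG under HG + FFA and 0 were DEG under ALL, and the summed level of the 10 markers ranged over 223 to 4029 FPM in Control, 208 to 5108.4 FPM under HG + FFA and 254 to 5327 FPM under ALL. Of 6 pericyte markers Cspg4 was lower under HG + FFA (−1.37 ± 0.36), and their sum was 217 to 952 FPM in Control, 149 to 994 FPM under HG + FFA and 136 to 939 FPM under ALL. Of 4 mesothelial markers Upk3b was higher under ALL (0.65 ± 0.15), with sums of 0.738 to 78.6 FPM in Control and 3.10 to 90.7 FPM under ALL. Among 11 endothelial and 9 smooth muscle markers tested 0 were DEG in either comparison. The part of such cells in the lower collagen levels of EC was not tested.

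The start regions of 7 of these genes are shown, Col5a3, Col6a3, Col15a1 and Col23a1 because they were lower under ALL in both WT VSMC and EC, Col3a1 because it was lower in WT VSMC, and Col1a2 and Col1a1 because they were lower in EC. Each is the run of 100 bases upstream of the canonical transcript start of the GENCODE annotation (GRCm39), 5′ to 3′ on the strand of the gene. None overlaps an annotated exon. Capitals mark 3 motifs searched on both strands, namely CCAAT (the other strand reads ATTGG), then TATAAA (the other strand reads TTTATA) and then GGGCGG (the other strand reads CCGCCC). The windows are chr4:47207482-47207581 for Col15a1, chr11:51180466-51180565 for Col23a1, chr1:45350598-45350697 for Col3a1, chr6:4505393-4505492 for Col1a2 and chr11:94826950-94827049 for Col1a1, all on the plus strand, and chr9:20726419-20726518 for Col5a3 and chr1:90771781-90771880 for Col6a3 on the minus strand.
Col5a3: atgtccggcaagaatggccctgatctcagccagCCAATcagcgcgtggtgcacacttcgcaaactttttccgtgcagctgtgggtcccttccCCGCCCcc
Col6a3: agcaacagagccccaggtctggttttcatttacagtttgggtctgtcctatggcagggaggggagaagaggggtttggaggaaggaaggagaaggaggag
Col15a1: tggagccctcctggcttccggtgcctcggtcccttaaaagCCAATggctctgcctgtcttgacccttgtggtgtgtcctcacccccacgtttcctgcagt
Col23a1: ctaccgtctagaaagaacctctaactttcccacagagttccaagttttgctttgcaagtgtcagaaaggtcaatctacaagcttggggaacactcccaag
Col3a1: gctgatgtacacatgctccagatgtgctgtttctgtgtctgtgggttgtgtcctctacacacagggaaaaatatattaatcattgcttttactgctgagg
Col1a2: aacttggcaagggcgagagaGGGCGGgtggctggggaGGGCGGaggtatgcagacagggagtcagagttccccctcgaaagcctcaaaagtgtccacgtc
Col1a1: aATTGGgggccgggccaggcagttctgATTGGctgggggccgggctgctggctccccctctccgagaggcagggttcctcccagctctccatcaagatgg
The windows of Col5a3, Col15a1 and Col1a1 held CCAAT on one of the strands, those of Col5a3 and Col1a2 held GGGCGG, and those of Col6a3, Col23a1 and Col3a1 held none of the 3 motifs. Over 250 bases upstream, CCAAT was found in 15 of 44 collagen genes (34.1 percent) and in 36.5 percent of 21770 protein-coding genes. TATAAA was found in 7 (15.9 percent) and in 11.9 percent, and GGGCGG in 21 (47.7 percent) and in 36.3 percent. Matches of different motifs may share bases, and a match only describes the letters.

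Between the genotypes under Control, 0 of 36 collagen genes tested were DEG, where 0.00622 percent of all genes were. DESeq2 alone called 3 (Col2a1, Col4a3 and Col5a3), against 1.75 percent of all genes. At an unadjusted p under 0.05, 4 genes were lower and 4 higher in KO VSMC, 8 of 36, where 12.2 percent of all genes passed. The median log2FC was −0.51. Col3a1 had 3637, 3269, 969 and 8236 FPM in WT sets and 5222, 358, 447 and 567 FPM in KO sets. KO set 5 lay within the WT range and the other KO sets below it. With all sets the log2FC of Col3a1 was −1.27 (FDR 0.555), and without KO set 5 it was −3.11 (FDR 0.0495). Col18a1 had 176, 160.0, 63.2 and 162 FPM in WT and 189, 36.3, 43.3 and 23.8 FPM in KO sets, with a log2FC of −0.93 (FDR 0.521) and without set 5 of −2.02 (FDR 0.0350). These 2 genes were the collagen DEG without set 5, where 2.17 percent of all genes were DEG.

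For Col5a3 the Control levels were 55.4, 80.4, 19.2 and 75.9 FPM in WT and 31.5, 14.7, 17.3 and 12.6 FPM in KO sets (log2FC −1.59, FDR 0.324). Col4a3 had 0.275, 0.857, 0.219 and 0.511 FPM in WT and 1.11, 13.7, 2.96 and 1.23 FPM in KO sets (log2FC 3.34, FDR 0.320), where every KO set lay above every WT set. The fibroblast marker sum was 2904 to 5095 FPM in WT and 425 to 2375 FPM in KO Control libraries, with KO set 5 the highest KO set. The ranges did not overlap, and what part the presence of such cells had in the collagen levels was not tested.

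**Figure D4:**
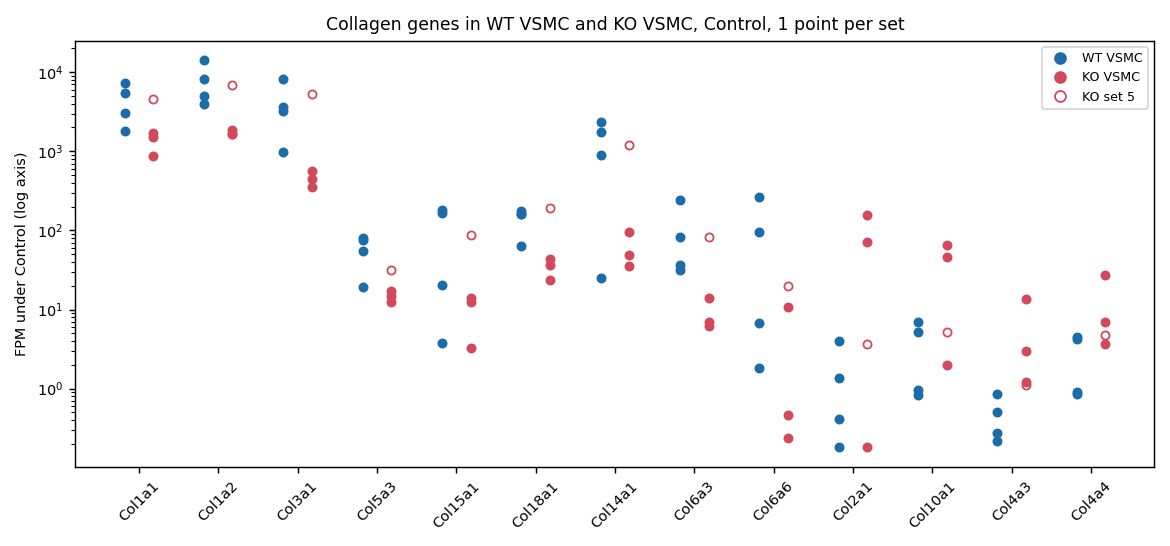
FPM (log axis) of selected collagen genes in the Control libraries of WT sets 1 to 4 and KO sets 5 to 8, with KO set 5 as an open symbol. Drawn are Col1a1, Col1a2, Col3a1, Col5a3, Col15a1, Col18a1, Col14a1, Col6a3, Col6a6, Col2a1, Col10a1, Col4a3 and Col4a4. The other reported collagen genes are not drawn, so the figure does not show the family as a whole. Col3a1 of KO set 5 (5222 FPM) lies among the WT sets (969 to 8236 FPM) and those of the other KO sets below (358 to 567 FPM).

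Between EC and WT VSMC under Control, 5 of 38 collagen genes tested were DEG, where 10.0 percent of all genes were, so that the share of collagen genes was near that of all genes. Lower in EC were Col6a6 (log2FC −9.04 ± 1.31, FDR 0.00231), Col6a5 (−8.01 ± 1.31, FDR 0.00443) and Col14a1 (−4.68 ± 0.82, FDR 0.00582). Higher in EC were Col4a5 (1.41 ± 0.32, FDR 0.0172) and Col4a3 (6.04 ± 1.51, FDR 0.0237). Col14a1 had 1761, 892, 25.3 and 2325 FPM in WT Control and 6.95 to 104 FPM in EC Control libraries, and WT set 3 lay inside the EC range. Col4a5 had 97.7, 109.5, 165 and 137 FPM in WT and a lowest value of 129.8, a median of 321 and a highest value of 754 FPM in EC Control libraries. Col6a6 was listed at 0 in the EC Control of sets 11, 12, 14, 15 and 17, so its fold depends on how 0 is treated.

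Leaving out EC sets 9, 11 and 13 raised the number of collagen DEG between EC and WT VSMC to 14, while the share of all genes called in that fit rose to 22.4 percent. The genes added were Col1a2 (−3.07), Col16a1 (−1.87), Col18a1 (−1.39) and Col28a1 (−4.95) as lower, and Col4a1 (0.99), Col4a4 (4.41), Col5a2 (1.34), Col8a1 (1.55) and Col23a1 (2.37) as higher in EC. Leaving out a WT set moved the number as well, to 3 without set 1 (4.48 percent of all genes) and 1 without set 2 (3.56 percent of all genes). Without EC sets 15 and 16 it was 4, without Col4a3, against 5.06 percent of all genes.

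The levels of the type I chains in the EC sets are given beside the markers of the same sets. The 3 sets of low Pecam1 had Col1a1 means of 2079, 5389 and 5762 FPM, and fibroblast marker sums of 1688, 3715 and 4810.1 FPM. Their smooth muscle marker sums were 879, 3250 and 3002 FPM, against 229 to 743 FPM in the other EC sets. Most of each of these sums came from Acta2, with 740, 3116 and 2806 FPM in sets 9, 11 and 13. Myh11 had 4.07, 0.463 and 6.32 FPM in the same sets, against 0.600 to 9.05 FPM in the other EC sets. Of the fibroblast marker sums, Dcn alone had 917, 2951 and 3713 FPM in sets 9, 11 and 13. The fibroblast marker sum of set 9 lay below that of set 17, a set of high Pecam1 (1954 FPM). Set 14, with a Pecam1 mean of 1603 FPM and a fibroblast marker sum of 828.9 FPM, had the lowest Col1a1, while the lowest marker sum was that of set 12 (228 FPM), where Col1a1 had 433 FPM. Sets of high Pecam1 were not uniformly low in Col1a1, since sets 16 and 17 had 2082 and 2947 FPM. Egfr was 134, 151 and 137 FPM in the 3 sets of low Pecam1, and at most 43.7 FPM in the others. Sets 17 and 18, from the same animal, had Col1a1 means of 2947 and 205 FPM and Col23a1 means of 12 and 191 FPM. What part the cell composition had in these levels was not tested.

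**Figure D5:**
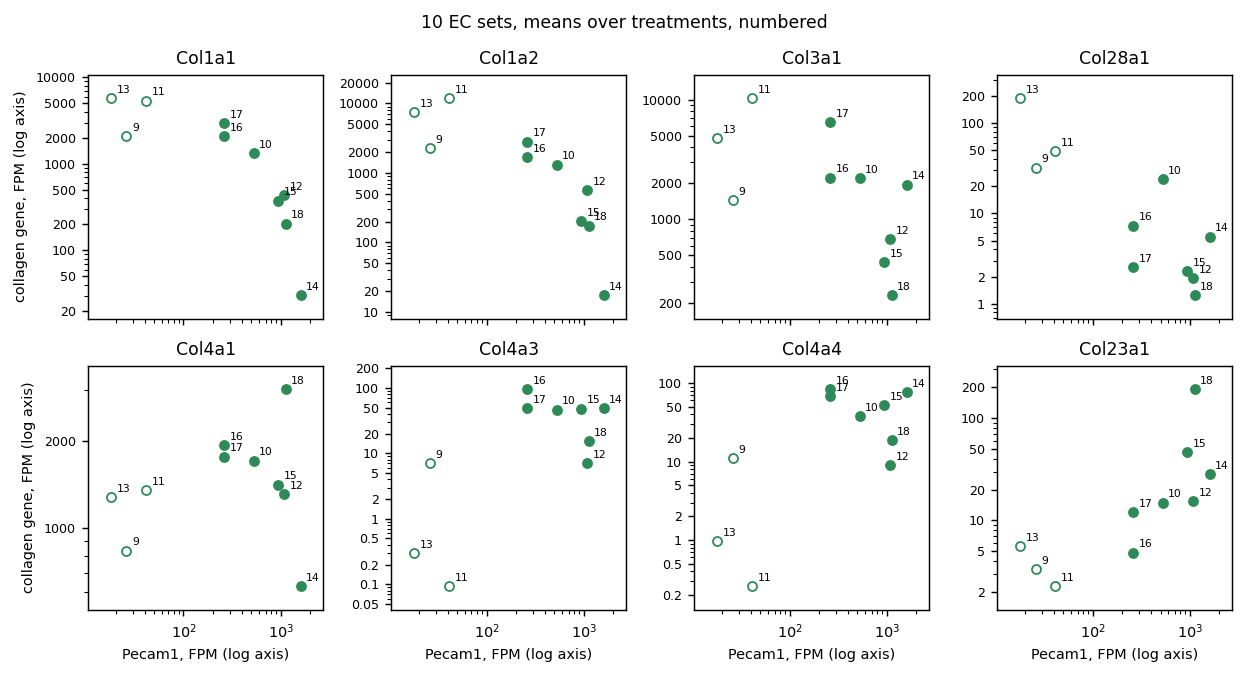
Mean FPM of selected collagen genes in the 10 EC sets against the mean FPM of Pecam1 (both axes log), with a point for each set. Drawn are Col1a1, Col1a2, Col3a1, Col28a1, Col4a1, Col4a3, Col4a4 and Col23a1. Col1a1 lies at 5389 and 5762 FPM in sets 11 and 13, where Pecam1 is 41.4 and 17.9 FPM.

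Genes that process, degrade or bind collagen were given as lists. Of 33 tested genes of collagen modification, folding, secretion and cross-linking, 1 was a DEG in WT VSMC under ALL (2.15 percent of all genes were), Lox, which encodes the cross-linking lysyl oxidase (log2FC 0.75 ± 0.11, FDR 0.000891). In all other stressor comparisons this list held 0 DEG, while the edgeR FDR alone was passed by 9 of its genes in WT VSMC under ALL (7.45 percent of all genes), 7 in EC under HG + FFA (3.53 percent) and 3 in EC under ALL (3.18 percent). The median log2FC of the list was −0.06 in WT VSMC under ALL and −0.11 in EC under HG + FFA. Of 9 tested genes of collagen breakdown and uptake and of 7 or 8 tested collagen receptors 0 were DEG in any stressor comparison. By the edgeR FDR alone 3 of 9 genes of breakdown and uptake and 3 of 8 receptors passed in WT VSMC under ALL, against 7.45 percent of all genes. In EC 1 of 9 genes of breakdown and uptake passed under HG + FFA (3.53 percent of all genes) and 1 under ALL (3.18 percent).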

How the data were processed

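Poly(A) RNA of 69 libraries was measured by paired-end sequencing. The authors mapped reads to mm39 with HISAT2 2.1.0, counted them over exons with featureCounts, multi-mapping reads included, and deposited the raw counts. The strand setting is not given in the sources used here. Some values of the counts can therefore be shared with paralogs or with overlapping and antisense genes.

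From these deposited counts FPM were calculated with TMM library sizes (edgeR 4.0.16). Each cell type was fitted with condition and set number as terms, with genes passing filterByExpr, by edgeR's quasi-likelihood test and by DESeq2 1.42.0 (R 4.3.3), with Benjamini-Hochberg adjustment over every gene of the fit. WT and KO VSMC were fitted jointly for differences of effects. EC sets 17 and 18 were summed to 1 sample against WT VSMC. The SE is |log2FC| divided by the square root of F. Figures used Python 3.11.15 with matplotlib 3.10.9. A pseudocount of 0.1 FPM was added for log2 ratios within sets. Symbols, positions and sequences came from GENCODE for GRCm39, which held 56310 of 56953 identifiers. The identifiers without a match held 0.0241 percent of the counts.

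Within a cell type sets come from separate animals, except EC sets 17 and 18, and 4 EC sets share an animal with a VSMC set. Libraries of a set share animal and passage per the study's methods, and the deviations of their genes correlated in every same-set pair (lowest r 0.496 for WT VSMC, 0.668 for KO VSMC, 0.703 for EC). No pair of libraries held equal counts for more than 1.11 percent of 12000 genes. Counts per library limit the precision of the least abundant genes.

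Levels were reported for collagen genes with at least 3 FPM in one cell type, and fold changes for the DEG of each comparison with the values of the same genes in the other cell types. The collagen genes, gene lists and marker lists were chosen with earlier results of these data known. The models were checked on simulated counts. Alternatives were each tool alone, DESeq2's size factors, no count filter, no log2FC limit, no set block, the animal as block in EC, sets 17 and 18 apart, each VSMC set left out and, added after the data were seen, EC sets under 100 FPM of Pecam1 left out and EC sets of KO donors left out.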

Additional observations from a re-analysis of the deposited data

Results flagged for a closer look

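Of 99 groups of Control libraries tested, 20 had a collagen gene with 1 library set apart from the rest of its group. A rate of about 1 in 20 groups, or 5 here, would hold for independent groups of normally distributed values. The groups are genes of the same libraries, and FPM were used without a log scale, so whether 20 exceeds chance was not tested. KO set 5 was the highest in 7 of the 20 groups, with Col1a2 at 6884, Col3a1 at 5222, Col14a1 at 1190.2, Col18a1 at 189, Col15a1 at 86.3, Col6a3 at 82.7 and Col27a1 at 14.8 FPM. The same set had 36.3 FPM of Egfr. KO set 6 was the highest in Col4a3 with 13.7 FPM and Col4a4 with 27.3 FPM, a pair of neighbouring genes.

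In WT VSMC, Col12a1 stood at 270.2 FPM in set 1, Col6a5 at 104 FPM in set 4 and Col18a1 at 63.2 FPM in set 3, below the others. In EC, set 13 was the highest for Col12a1 with 1453 FPM and Col28a1 with 154 FPM. Set 17 was the highest for Col11a1 with 223 FPM, Col27a1 with 40.9 FPM and Col4a5 with 754 FPM. Set 18 was the highest for Col23a1 with 291 FPM, Col4a1 with 2894 FPM and Col6a6 with 1.53 FPM.

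Under ALL, Col6a6 was lower than Control in every WT VSMC set (median log2 ratio −0.79) and higher in the 3 KO VSMC sets with an ALL library (median 0.21), while the fitted log2FC in KO VSMC was −0.01. The log2FC of WT minus that of KO VSMC was −0.77 (FDR 0.614, edgeR's quasi-likelihood test), which does not pass the threshold, and the KO levels of Col6a6 under Control were 0.463, 0.235 and 10.8 FPM in sets 6 to 8, near the 0.1 FPM added for the ratios in sets 6 and 7.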

How the results depend on the processing

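Without the replicate block, 0 collagen genes were DEG under HG + FFA and under ALL, in WT VSMC as in EC, in place of 2, 9, 5 and 6. By construction that fit leaves the differences between animals in the spread. The block changed no other call. With the animal as block in EC, 1 gene was DEG under HG + FFA (0.292 percent of all genes) and 1 under ALL (0.257 percent). DESeq2 alone called 2 collagen genes for ALL against HG + FFA in WT VSMC (0.385 percent of all genes). In KO VSMC it called 1 for HG + FFA (0.507 percent) and 4 for ALL (0.747 percent). It called 3 between the genotypes (1.75 percent) and 8 between EC and WT VSMC. Without the count filter 1 gene was DEG under HG + FFA and 4 under ALL in KO VSMC, and the cause was not tested. Without the log2FC limit 8 genes were DEG under HG + FFA in EC. Leaving out 1 set gave 0 to 2 DEG for HG + FFA and 4 to 10 for ALL in WT VSMC, 0 to 1 for ALL against HG + FFA, 0 to 1 for HG + FFA in KO VSMC, 0 to 2 between the genotypes and 1 to 4 between EC and WT VSMC. Leaving out the EC sets of low Pecam1, an alternative chosen after seeing the data, gave 14 between EC and WT VSMC, where 22.4 percent of all genes were DEG. Of 269 log2FC of collagen DEG under an alternative, 213 kept direction and side of the threshold and 56 kept the direction only. The direction of genes that were not DEG was not followed over the alternatives. Counts of this paragraph without a share of all genes only show how the calls moved. They are not a result about collagen genes. Genes under 3 FPM could not be called.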
